A study of Mus musculus with 9 samples.

Results

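The control group (con) of a mouse study of the diabetic kidney gives the RNA of kidney cortex after vehicle alone, and it is described here gene by gene. Its members are the 3 con libraries of the 9 in the series, and all 18657 genes of the table were ranked by their mean over these 3. Con mice were male Vhl fl/fl littermates without Cre, on a mixed C57BL/6/FVB background, and they received citrate buffer at 12 weeks of age. Cortex was taken 10 weeks later, and each library holds the pooled RNA of 2 mice, so the 3 pools (con 1, con 2 and con 3) stand for 6 mice and the spread between single mice cannot be seen. The other groups had 2 libraries from 4 mice each. VHLΔPT mice were Vhl fl/fl with Cre under the Sglt2 promoter, active in the first proximal tubule segments (S1 and S2). Con/STZ mice were Vhl fl/fl with streptozotocin (STZ, a beta cell toxin), 100 mg/kg on 2 days, and VHLΔPT/STZ mice carried Cre and received STZ. All groups carried the floxed Vhl alleles. The replicate numbers name the libraries, and p-values below measure the spread between pools.

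The cortex is mostly proximal tubule, the segment that takes back filtered sodium, phosphate, glucose, amino acids and protein and that makes glucose and ammonia. After it come the thick ascending limb, which dilutes the urine through the cotransporter Slc12a1, the distal convoluted tubule with Slc12a3, the connecting tubule, and the collecting duct, where principal cells take up water through Aqp2 and intercalated cells move acid and base. Glomeruli, vessels, interstitial cells and, at the cut edges, medulla, the lining of the pelvis and fat around the kidney can all enter a cortex sample.

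The values are normalized counts: gene counts that were quantile normalized over the 9 libraries, so every library has nearly the same total, 21951722 to 21952234. Genes of the same rank get the same value in every library, and the highest values are therefore set by the rank and not by the reads of con alone. At the low end, where whole reads can still be seen, 1 read was worth 1.33 units in con 1, 1.07 in con 2 and 1.06 in con 3, against 0.798 to 1.18 in the other libraries, so con 1 was the shallowest by this measure. The total depth is unknown. Vhl (chromosome 6 from 113623959 to 113631633, GRCm38) had 555, 522 and 528 in con, against 434 and 469.8 in VHLΔPT, 501 and 527 in con/STZ and 516 and 516.5 in VHLΔPT/STZ over all exons and cells. One library went against the label of male mice: Xist, the RNA of the inactive X chromosome, was at 3205 in con/STZ 2 and at 0 to 6.22 in the 8 others, and Y-linked Ddx3y was present in con/STZ 2 at 498. Results against the other groups are also given without it. No batch is given for the libraries in the sources used here.

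Kap led the con cortex. Kap, an androgen-regulated secreted protein of the proximal tubule (chromosome 6 from 133849851 to 133853762, GRCm38), had 789999 in each of the 3 pools and made up 3.60% of the total. Gpx3, the glutathione peroxidase that the kidney secretes into plasma (chromosome 11 from 54902453 to 54910377), followed with 478389 in each pool. Both values are the same in all pools because both genes held the same rank in each, so their SD of 0 says nothing of their reads. Per kilobase of merged exons, the scale used here for levels of different genes, Kap stood 4.23 times above Gpx3 and held 14.2% of the sum over all genes. This ratio and the shares of Kap follow from the ranks and the exon lengths, and not from the reads of con alone.

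Behind them came genes of proximal tubule metabolism and transport. The fatty acyl ligase Acsm2 had 137282, 179848 and 154892. The sodium phosphate cotransporter Slc34a1 had 129462, 137282 and 129462. Pck1, the enzyme of glucose and ammonia production, was the exception among them, with 179848 in con 1 against 85143 and 94054 in con 2 and con 3. High in all pools were also the fatty acid transporter Slc27a2 (101584 ± 8061, SD, n = 3 pools) and the ATP synthase subunit Atp5b (96428 ± 12641). The ferritin heavy chain Fth1 averaged 122585 ± 13730.

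The 10 highest genes held 10.4% of the total, the 100 highest 25.4% and the 1000 highest 57.0%, and 671 genes held 50% of it. Quantile normalization gave all libraries nearly one set of values. These shares, and the counts at 10, 1000 and 10000 below, were therefore largely set by the whole series and are not particular to con. In all, 14372 genes averaged at least 10, 4312 at least 1000 and 295 at least 10000, while 167 stood at the value of 0 reads in all 3 pools. By value and per kilobase, 22 of the 30 highest genes were the same. Per kilobase the genes that joined were short ones, among them the trypsin inhibitor Spink1 (31011 ± 7394 per kilobase, rank 11), the respiratory chain subunit Cox8a (23487 ± 3009, rank 19), the calcium-binding protein S100g (22501 ± 14029, rank 23) and the kallikrein Klk1 (19675 ± 4603, rank 30).

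**Figure D1:**
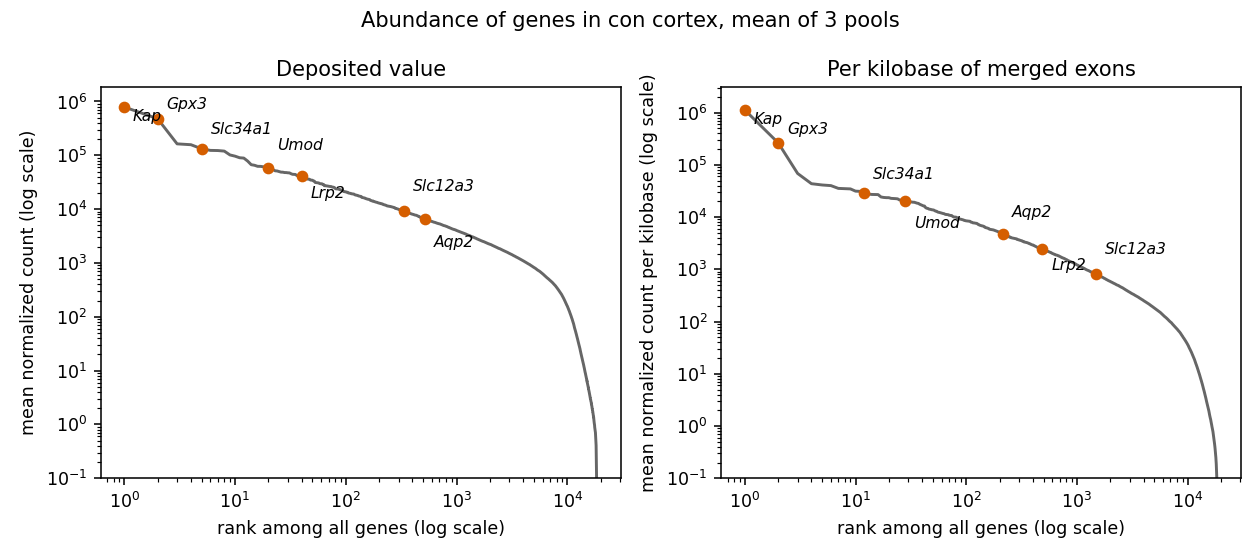
Mean normalized count (left) and mean normalized count per kilobase of merged exons (right) of each gene over the 3 con pools, against its rank, both axes on a log scale. Kap and Gpx3 head both rankings, and Lrp2 drops from rank 40 by value to rank 488 per kilobase.

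Solute carriers, the family of most tubule transporters, took 4.68% ± 0.140 of the total through 343 genes (SD, n = 3 pools), and 8 of them were among the 100 highest genes. Nuclear genes of the ATP synthase and the respiratory chain took 3.19% ± 0.398 through 90 genes, with 2.86%, 3.07% and 3.63% in con 1, con 2 and con 3. Glutathione peroxidases and transferases took 2.67% ± 0.0493, with Gpx3 highest. Cytosolic ribosomal proteins took 1.64% ± 0.219, cytochromes P450 1.25% ± 0.00871 with Cyp4b1 highest, aquaporins 0.210% ± 0.0189 and claudins 0.113% ± 0.0140. These shares rest on the genes of the table: none of the 13 mitochondrially encoded genes and none of 1344 annotated coding genes with 1 exon is among those used here, against 15807 of 20684 with 2 or more exons.

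Of 203 marker genes in 30 lists, 193 were in the table and 186 averaged at least 10 in con. The 5 defining tubule markers were high in every pool. Lrp2 (megalin, the endocytic receptor of the proximal tubule, chromosome 2 from 69424340 to 69586065) had 38099, 47050 and 36699. Slc34a1 lies on chromosome 13 from 55398187 to 55415592, and its values are given above. Umod (uromodulin of the thick ascending limb, chromosome 7 from 119462711 to 119479282) had 52812, 59262 and 59262. Slc12a3 (the thiazide-sensitive cotransporter, chromosome 8 from 94329201 to 94366214) had 8721, 9187 and 9254. Aqp2 (chromosome 15 from 99579055 to 99584547) had 6972, 3725 and 9108, and was the one of the 5 that differed more than 1.5-fold between pools, lowest in con 2. Per kilobase the order was Slc34a1 (28244 ± 966), Umod (20670 ± 1348), Aqp2 (4653 ± 1910.2), Lrp2 (2432 ± 336) and Slc12a3 (814 ± 26.1). The ranges of neighbours in this order over the pools do not overlap, except those of Aqp2 and Lrp2.

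The 15 general markers of the proximal tubule held 7.11% of the total, with a median of 19787 per kilobase. The S1 and S2 list was led by the organic anion transporter Slc22a6 (7743 ± 621 per kilobase) and the glucose transporter Slc5a2, also called Sglt2, at 2920 ± 364 per kilobase. In counts Slc5a2 had 9465, 8553 and 7361, so the gene whose promoter drives Cre in the other groups was expressed in each control pool. The S3 list was led by the amino acid transporter Slc7a13 (10686 ± 467 per kilobase), a gene of male mice. The late glucose transporter Slc5a1 stood at 493 ± 66.5 per kilobase, below Slc5a2. A range of at least 1.5-fold between pools was found in 2 of the 15 general markers (Pck1 and the organic anion transporter Slc22a8, with 15716, 12205 and 10405), 1 of 8 for S1 and S2 (the amino acid transporter Slc6a19, with 6077, 10862 and 7313) and 0 of 6 for S3. Of all 14372 genes 24.3% had such a range, but 7.69% of those averaging 1000 to 10000 and 9.15% of those above, where these markers lie, so the counts are near the background at their level.

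In the thick ascending limb list, Slc12a1 had 9710, 11999 and 10789 and Egf, the growth factor precursor of this and the next segment, had 23085, 25546 and 22449. Per kilobase Slc12a1 stood at 1880 ± 199 and Egf at 2101 ± 145, below Umod. Of the macula densa list, the synthase Nos1 had 12.1, 17.8 and 12.4 and the cyclooxygenase Ptgs2 16.3, 8.33 and 13.4, both close to the lower limit of 10, while the vasopressin receptor gene Avpr1a had 199.1, 110.1 and 180.1. In the distal convoluted tubule list, the kinase Wnk4 averaged 855 ± 49.1 per kilobase, near Slc12a3, and Klhl3, a substrate adaptor that lowers Wnk4, had 268, 201 and 122. In the connecting tubule list, S100g had 6483, 7359 and 18560 and Calb1, another calcium-binding protein, 6948, 6948 and 11692, so both were more than 1.5-fold higher in con 3 than in the other pools. The calcium channel Trpv5 (330.1, 286 and 464) was also highest in con 3.

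Beside Aqp2, the pump regulator Fxyd4 of the principal cell list differed between pools, with 500.3, 539 and 890.3, high in con 3. The sodium channel subunit Scnn1a had 3458, 2778 and 2916 and the water channel Aqp3 2782, 2666 and 3496, while Avpr2, the vasopressin receptor of these cells, had 5.44, 3.11 and 2.00. A range of at least 1.5-fold was found in 2 of 7 principal cell genes averaging at least 10 and in 0 of 9 intercalated cell genes. At these levels 16.6% (100 to 1000) and 7.69% (1000 to 10000) of all genes had one. The lists were not tested against each other. The base exchanger Slc26a4 had 1765, 1519 and 1590, and the transcription factor Foxi1 had 658, 784 and 819. Aqp1, shared by the proximal tubule and the thin descending limb, had 32570, 29693 and 31600 (11910 ± 557 per kilobase). The urea transporter gene Slc14a2 of the inner medulla had 269, 385 and 457, lowest in con 1.

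None of 9 podocyte genes and none of 10 endothelial genes had a range of at least 1.5-fold, near the shares of all genes at their levels (16.6% from 100 to 1000 and 7.69% from 1000 to 10000). Podocalyxin (Podxl), which coats the podocyte foot processes, had 3991, 4107 and 3902. In the endothelium, the fenestral diaphragm gene Plvap had 3101, 3118 and 3100 (1563 ± 5.01 per kilobase) and Pecam1 1345, 1285 and 1319. Renin (Ren1), the enzyme of the juxtaglomerular cells, was less even, with 2704, 1664 and 2726. It was one of the genes at least 1.5 times lower in con 2 than in both other pools, where 2.34% of all genes were, and so were 3 of 5 liver list genes (Alb, Apoa1 and Apoa2). In smooth muscle, the actin-binding protein gene Tagln had 2349.6, 1034 and 1518, high in con 1. Fibroblast collagen Col1a1 had 340, 539.9 and 385. In such bulk tissue, fewer cells of a type and less RNA per cell cannot be told apart.

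Resident macrophage genes were present in every pool: Csf1r, the growth factor receptor of these cells, had 2306, 2179 and 2015, and the complement genes C1qa 559, 567 and 882, C1qb 567, 454 and 625 and C1qc 394, 390.2 and 547. Cd74, the invariant chain of antigen presentation, reached 3506 ± 472 per kilobase. T cell genes lay between 10.2 and 20.9 in every pool and list member, and Cd79a of B cells had 22.2, 25.1 and 21.8. The immunoglobulin heavy chain gene Ighm had 829, 166 and 378, highest in con 1. Injury markers were measurable in these control kidneys: Havcr1, which damaged proximal tubules express, had 901, 815 and 1003, and Lcn2 had 141, 48.8 and 201.1. Of the injury list 5 of 6 genes had a 1.5-fold range, the matrix protein gene Spp1 (13531, 9351 and 19651) among them. Such a range was found in 24.3% of all genes. By level it was found in 58.9% of those averaging 10 to 100, 16.6% from 100 to 1000 and 9.15% from 10000 up. The immediate early genes Fos (199.1, 78.8 and 249.7), Fosb (20.9, 5.22 and 11.2) and Atf3 (105.7, 67.3 and 148), which stress and handling of tissue induce, were low in con 2, and with Egr1 (523, 365 and 644) all 4 measured genes of their list had such a range. Cell division genes were low, with Mki67 at 70.4, 70.4 and 73.3. Of the adrenal cortex list, Star had 84.3, 75.2 and 86.9 and Cyp11a1, the first enzyme of steroid synthesis, was at 0.111, 1.11 and 0. The transport protein gene Ttr, listed with liver, had 6324, 8110 and 8289, while albumin (Alb) had 200.1, 88.0 and 266.

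**Figure D2:**
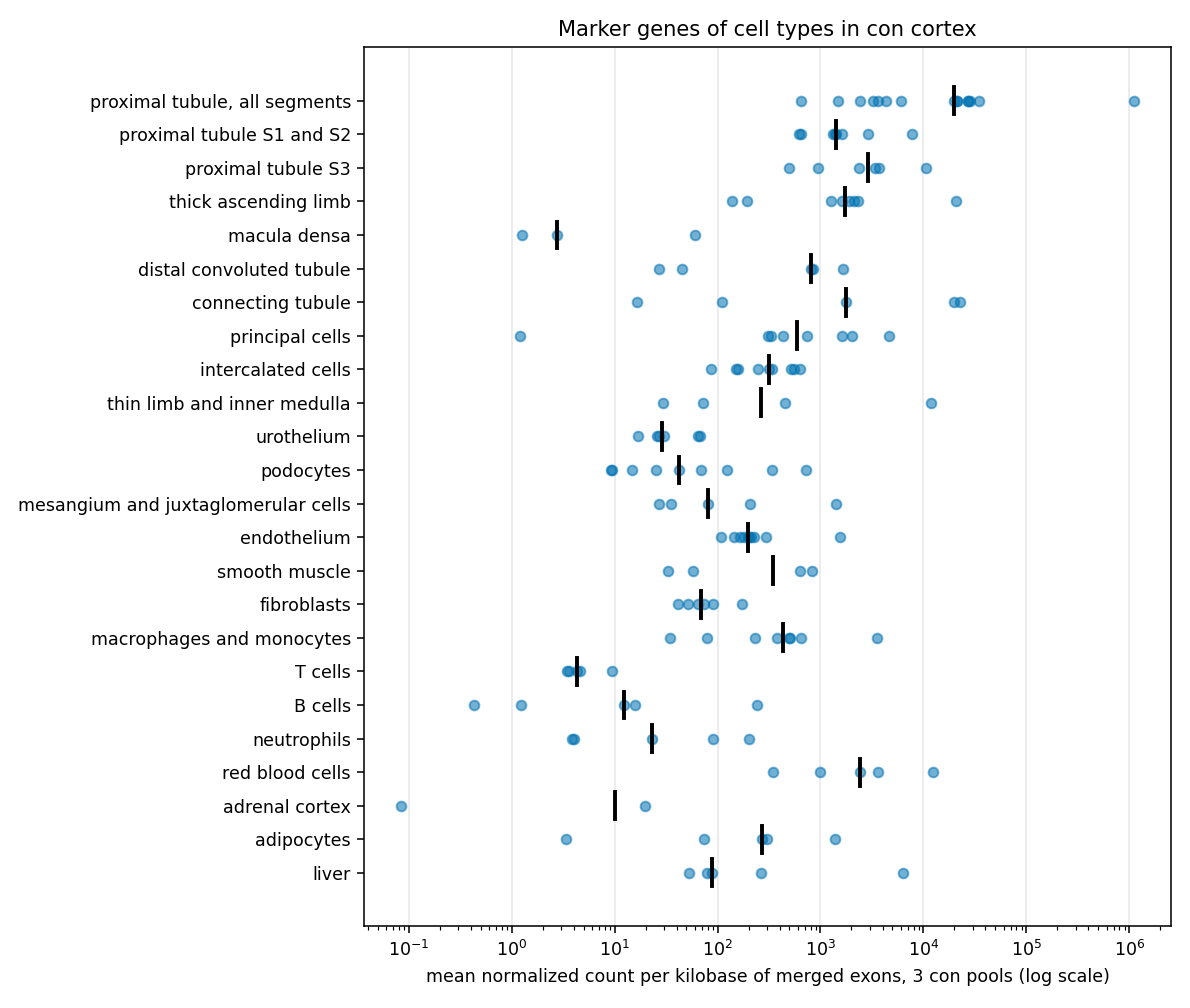
Mean normalized count per kilobase of merged exons over the 3 con pools (log scale) for the marker genes of the cell type lists, 1 point per gene and a bar at the list's median. The general proximal tubule list has a median of 19787, the endothelial list one of 199 and the T cell list one of 4.34.

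The 3 pools were close to each other for most genes. Spearman's correlation across the 14372 genes, which are not independent replicates, was 0.987 for con 1 with con 2, 0.984 for con 1 with con 3 and 0.988 for con 2 with con 3. The median coefficient of variation (CV, the SD over the mean) was 12.2%. It was 25.4% for genes averaging 10 to 100, 11.4% from 100 to 1000, 8.73% from 1000 to 10000 and 8.53% above. For the 3363 genes low enough for their whole reads to be seen in all pools, the median CV was 25.6%. Counting alone has a true CV of 19.1% at their median of 27.3 reads. The 2 values are unlike measures, because a CV computed from 3 pools tends to fall below the true one. The highest pool was at least 1.5 times the lowest, after adding 1 to each value, in 3492 genes (24.3%), at least 2 times in 1367 and at least 5 times in 190. Without con 1 the 1.5-fold count was 1730 genes and without con 3 it was 1838, each with 2 pools left.

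Some of this spread followed gene length. The deviation of a gene from its mean correlated with log10 length with r = 0.03 in con 1, 0.19 in con 2 and -0.22 in con 3, across genes. Genes at least 1.5 times higher in con 3 than in both other pools had a median of 2613 exon bases, and those as much lower there had 4171. With the length trend removed, 3289 genes still had a 1.5-fold range. Of the 186 marker genes, 84 (45.2%) had such a range, against 24.3% of all genes. By level the share of all genes was 58.9% from 10 to 100, 16.6% from 100 to 1000, 7.69% from 1000 to 10000 and 9.15% above. Some of the lists in which most members had one are described next. The lists were chosen with earlier results of these data known. Their counts beside the shares of all genes are therefore descriptions of these pools and not tests.

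The interferon response list, genes that type I interferon and viral RNA induce, differed in one direction. All 7 members were at least 1.5 times higher in con 3 than in both other pools, where 3.24% of all genes were. Ifit1, which binds foreign RNA, had 93.7, 86.1 and 1112. The antiviral ubiquitin-like modifier Isg15 had 74.6, 88.0 and 468, and the transcription factor Irf7 had 231, 281 and 1952. Oas1a, a sensor of double-stranded RNA, had 55.1, 64.0 and 242. Con 1 and con 2 were close to each other in all of these and con 3 stood above both. Summed over the list, the level was 1292, 1374 and 6926 in con 1, con 2 and con 3, against 930 to 1795 in the 6 libraries of the other groups. Macrophage lysozyme (Lyz2: 438, 465 and 1034) was also high in con 3. Among the macrophage genes C1qa was too, whereas Csf1r was not.

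The bases before the start of 3 of these genes are shown because this list moved together in con 3 and because interferon-activated factors bind a GAAANNGAAA element. They are the 250 bases before the RefSeq start, from 5′ to 3′ on the gene's strand (GRCm38.p6), with the element in capitals on either strand (TTTCNNTTTC on the other), overlapping copies joined.
Ifit1: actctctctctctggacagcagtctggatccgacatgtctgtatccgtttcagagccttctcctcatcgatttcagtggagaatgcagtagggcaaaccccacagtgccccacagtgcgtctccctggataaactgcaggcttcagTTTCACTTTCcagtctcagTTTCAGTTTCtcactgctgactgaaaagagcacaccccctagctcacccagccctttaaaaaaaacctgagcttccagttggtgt
Isg15: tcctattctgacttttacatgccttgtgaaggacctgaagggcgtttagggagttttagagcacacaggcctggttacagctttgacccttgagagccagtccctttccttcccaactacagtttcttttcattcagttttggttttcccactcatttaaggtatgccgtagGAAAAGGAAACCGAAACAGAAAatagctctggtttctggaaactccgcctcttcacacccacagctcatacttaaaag
Oas1a: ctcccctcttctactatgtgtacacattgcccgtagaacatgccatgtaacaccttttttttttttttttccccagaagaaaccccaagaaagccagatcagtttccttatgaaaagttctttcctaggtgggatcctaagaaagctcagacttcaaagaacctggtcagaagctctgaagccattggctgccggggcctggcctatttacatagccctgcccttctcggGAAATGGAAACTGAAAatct
The stretches are chr19:34640639-34640888 on the plus strand for Ifit1, chr4:156200819-156201068 on the minus strand for Isg15 and chr5:120907526-120907775 on the minus strand for Oas1a. Over windows of 300 bases (250 before to 50 after the start), the element was found in 4 of the 5 list genes matched to RefSeq (Ifit1, Ifit3, Isg15 and Oas1a, not Irf7) and in 3.44% of all 32851 promoters of that length. Usp18 was not matched. A match describes letters, not binding in these kidneys.

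Fat genes made the widest differences. Ucp1, the uncoupling protein of brown fat, had 12.1, 2566 and 266 in con 1, con 2 and con 3, the largest ratio between pools of any named gene with a mean of at least 50 (196-fold after adding 1). The lipid droplet genes Cidea (8.11, 821 and 199.1), Plin1 (8.11, 759 and 269) and Cidec (31.1, 1097 and 391) and the hormone adiponectin (Adipoq: 22.2, 811 and 408) had the same order, with con 2 highest and con 1 lowest. The same held for the beta-3 adrenergic receptor Adrb3 (4.11, 161 and 55.9), and for Cox8b (12.1, 320.2 and 103), the respiratory chain subunit of brown fat and muscle. Dio2, the deiodinase that activates thyroid hormone in brown fat, was high in con 2 alone (9.33, 211 and 13.4). The adipsin gene Cfd differed in that con 3 was highest, with 79.2, 1653 and 2102. In the adipocyte list, 4 of 5 genes were high in con 2 and 4 of 5 low in con 1, where 1.85% and 3.37% of all genes were, and the list summed to 146, 4344 and 3174, against 339 to 5358 in the other libraries. The part of fat cells in these values was not tested.

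Of the 20 genes with the largest ratio between pools, con 1 was lowest in 18, con 2 highest in 12 and con 3 highest in 8. Beside the fat genes they held Aldh1a3, an enzyme of retinoic acid synthesis (16.3, 53.4 and 349.8), the interferon-induced Ifi27l2a (67.7, 254 and 1187) and the inhibitor of bone morphogenetic proteins Grem1 (61.2, 5.22 and 266). Snx31, a sorting nexin of urothelial cells, had 249, 32.2 and 652, lowest in con 2.

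**Figure D3:**
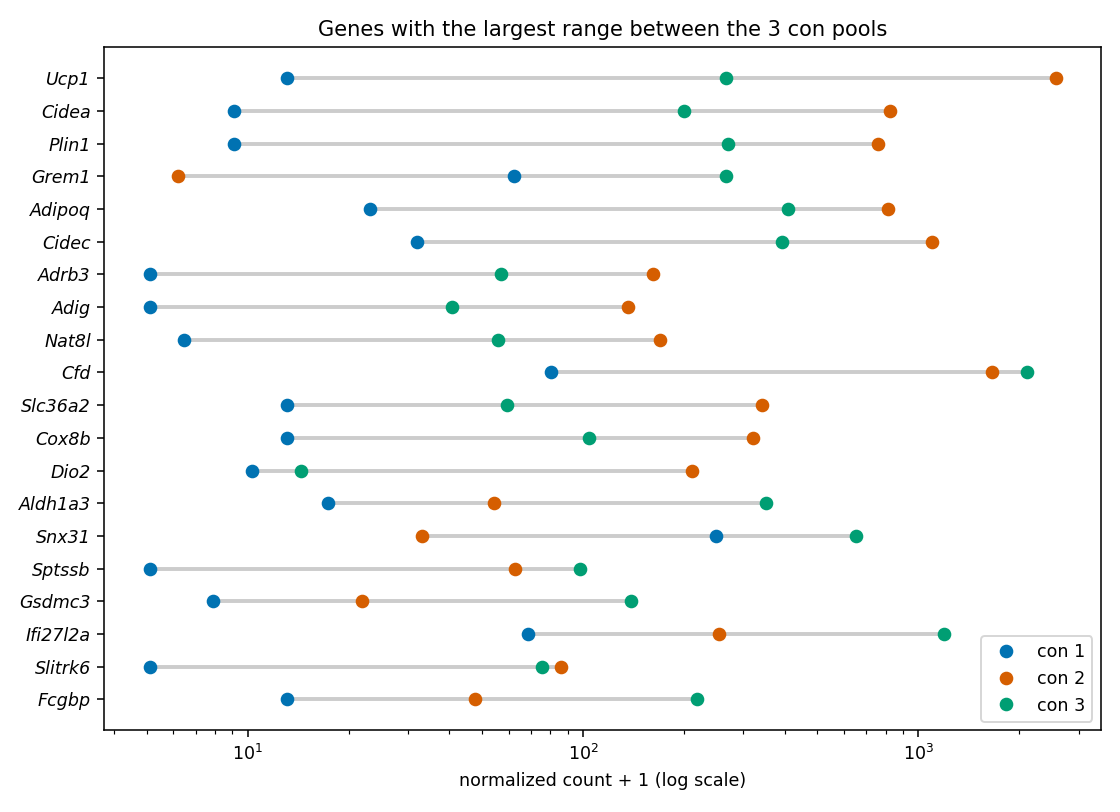
Normalized count plus 1 (log scale) in con 1, con 2 and con 3 for the 20 genes with the largest ratio between pools at a mean of at least 50. Con 1 is the lowest point in 18 genes, and con 2 is the highest in 12.

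Genes listed for the urothelium, the lining of the renal pelvis, were low in con 1 in 6 of 6 cases, where 3.37% of all genes were. Snx31, given above and not in this list, went another way and was lowest in con 2. The uroplakins, which form its watertight plaques, had 31.1, 77.6 and 165 for Upk1a, 12.1, 57.7 and 92.2 for Upk1b and 16.3, 68.6 and 135 for Upk3a. The list summed to 127, 363 and 622, against 177 to 3405 in the other libraries, so the other groups spanned a wider range. In the red cell list, 4 of 5 genes were high in con 2, against 1.85% of all genes. Alas2, the heme enzyme of red cell precursors, had 518, 1361 and 632. Hbb-bs, the adult beta globin and the highest of the 5 by value, was not among the 4. It had 4851, 13299 and 10145 and was low in con 1. Neutrophil genes separated the pools another way. The calgranulins S100a8 and S100a9 had 127 and 175 in con 1, 54.6 and 130.1 in con 2 and 7.11 and 10.2 in con 3, and Retnlg had 35.6, 5.22 and 0. All 3 were low in con 3, where 2.55% of all genes were.

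Con 1 also stood apart in clock genes. The transcription factor Arntl, which drives the positive arm of the clock, had 204, 35.0 and 47.3, and its relative Npas2 had 55.1, 15.7 and 25.1. Some genes that Arntl activates lay on the other side. Dbp had 1106, 2922 and 2688, Nr1d1 had 559, 1759 and 1142, and Ciart had 113, 356 and 291. Among the other list members, Per1 (1418, 1379 and 1064), Per2 (1324, 837 and 1204) and Clock were highest in con 1, as Arntl was. Per3, Tef, Nr1d2 and Bhlhe41 were lowest there. Of the 12 clock genes, 2 were high and 3 low in con 1, against 3.42% and 3.37% of all genes, and Per1, Per3, Clock, Tef and Nr1d2 had a range under 1.5-fold. The other libraries spanned 29.3 to 474 for Arntl and 367 to 3206 for Dbp, which takes in all con pools. The hour at which the mice were killed is not given in the sources used here.

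A few abundant or stress-related genes had the same split, and those beside Pck1 and Ndrg1 were chosen after their values were seen. Ndrg1, which hypoxia induces, had 100610, 42339 and 40752 in con 1, con 2 and con 3, and Hmox1, the heme-degrading enzyme, 8099, 1397 and 1516. Igfbp1, an insulin-repressed binding protein of growth factors, had 659, 243 and 80.1, and the glucocorticoid-induced Zbtb16 338, 46.8 and 82.2. The con 1 value also lay above all libraries of the other groups for Hmox1 (1159 to 3001), Igfbp1 (123 to 379) and Pck1 (72919 to 137282). For Zbtb16 (178 to 653) and Ndrg1 (40752 to 129462) it lay within them. The cell cycle inhibitor Cdkn1a had 907, 284 and 1673, with con 3 highest.

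**Figure D4:**
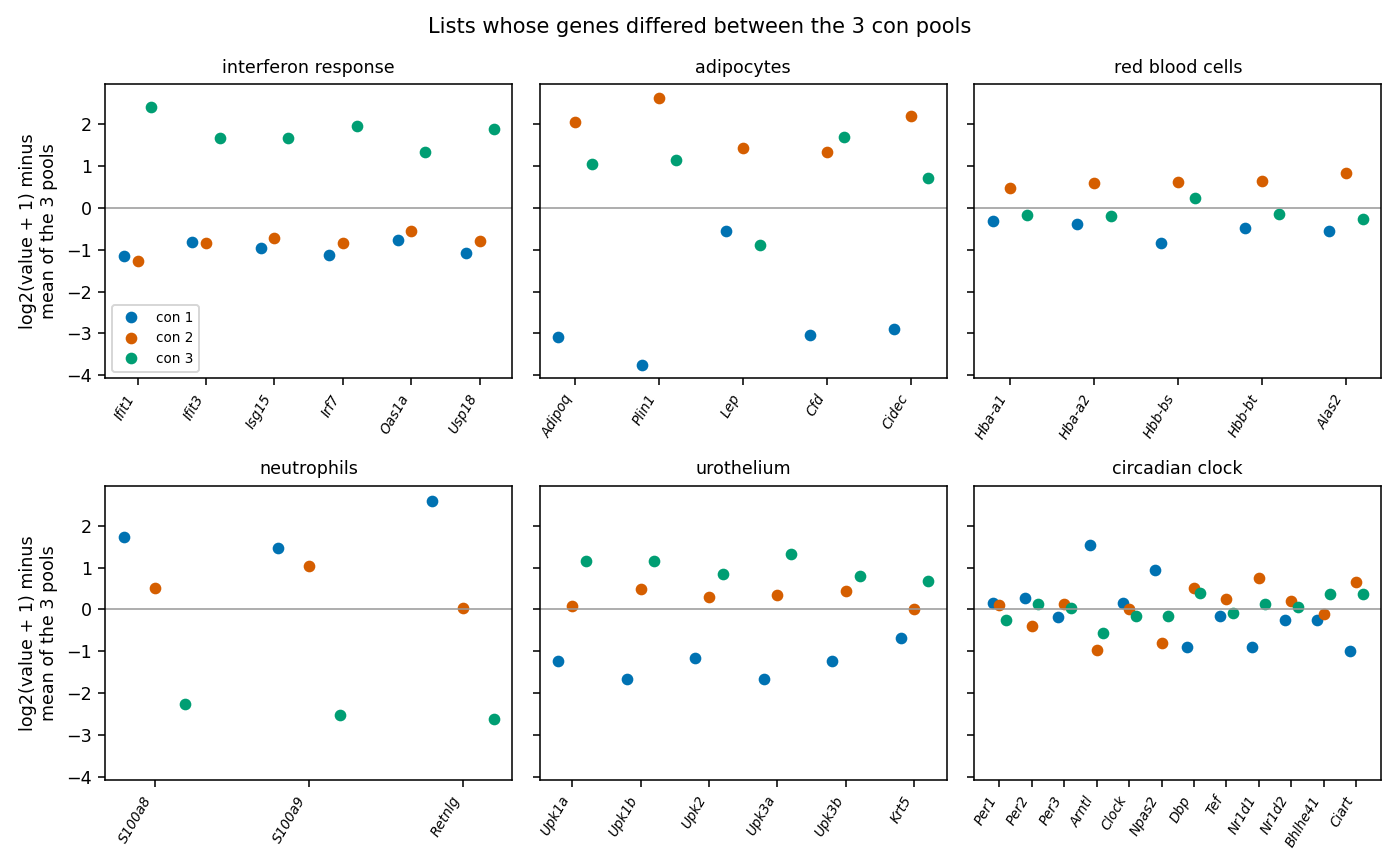
Difference of log2(value + 1) in each con pool from the mean of the 3 pools, for genes with a mean of at least 10 in 6 lists. Con 3 lies above the other pools in all 6 interferon genes plotted, con 1 below them in all 6 urothelial genes, and con 1 above them for Arntl and Npas2 and below them for Dbp, Nr1d1 and Ciart.

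Set against the average of the other 3 groups, con differed in a minority of marker genes. The fit was limma on log2(value + 1) of 14437 genes, as con minus the mean of the 3 other group means, and a gene was called at a Benjamini-Hochberg adjusted p under 0.05 and a fold over 1.5. Of all genes tested 7.50% were called, 402 higher and 681 lower in con. Of 182 marker genes 27 (14.8%) were called, 9 higher and 18 lower, where 2.78% and 4.72% of all genes were. The median difference was -0.10 over the markers and 0.02 over all genes (log2). Without con/STZ 2, 25 markers and 891 genes were called, and without con 3, 17 and 684. The 3 other groups differ in genotype and treatment, so a difference here says that con stands off from their average and not which group moved.

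Among the tubule lists, 3 of 5 connecting tubule, 3 of 5 distal convoluted tubule and 3 of 8 S1 and S2 genes were called lower in con. Of all genes 4.72% were. The same call was made for 2 of 15 general proximal tubule, 1 of 8 thick ascending limb, 2 of 3 macula densa and 1 of 4 thin limb and inner medulla genes. It was made for 0 of 6 S3, 0 of 7 principal cell and 0 of 9 intercalated cell genes. Slc8a1, the sodium calcium exchanger of the connecting tubule, had 311, 287 and 332 in con, against 666 to 1599 in the other libraries (log2 difference -1.68, standard error 0.10, adjusted p = 8.26e-04 in limma). Slc12a1 had 9710 to 11999 in con and 16183 to 37387 in the others (log2 difference -1.04, standard error 0.10, adjusted p = 0.00191). Con did not overlap the other libraries in either gene, nor in 22.8% of all genes tested. The sodium bicarbonate cotransporter Slc4a4 of the proximal tubule (-0.91, standard error 0.09, adjusted p = 0.00191) and the lactate transporter Slc5a12 (-1.02, standard error 0.17, adjusted p = 0.00630) were lower in con as well. So were Calb1 (-1.03), Trpv5 (-0.84) and Klhl3 (-1.28), and con 1 and con 2 lay below con 3 in Calb1 and Trpv5. In these 2 genes con overlapped the other libraries. Calb1 had 6948 to 11692 in con and 8099 to 30566 in the others, and Trpv5 286 to 464 and 445 to 1009.5. Slc8a1, Slc12a1, Slc4a4, Slc5a12, Calb1, Trpv5 and Klhl3 were all still called with the length trend removed.

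Lrp2 and Slc12a3, both long genes, were lower in con in the fit of all genes but not once the length trend was removed. Lrp2 had 36699 to 47050 in con, against 55847 to 72919 in the other libraries (log2 difference -0.65, standard error 0.13, adjusted p = 0.0101), and Slc12a3 differed by -0.68 (adjusted p = 0.00529). With the length trend removed their differences were -0.22 (adjusted p = 0.175) and -0.38 (adjusted p = 0.0520), and neither was called. The 18 markers lower in con had a median of 7520.5 exon bases and the 9 higher ones 1457, and with the length trend removed 9 of the 18 and 1 of the 9 kept their call. Cubn (the partner receptor of megalin, -0.76), Slc2a2 (-0.65), Trpm6 (-0.82), Clock (-0.75), Nos1 (-1.10), Ptgs2 (-0.92) and the podocyte gene Thsd7a (-0.63) were among those that did not. Of these, Thsd7a and Ptgs2 each lost their call in 7 of the 9 fits with 1 library left out (adjusted p up to 0.0985 and 0.1099), Nos1 without con 3 (adjusted p = 0.0577) and Slc2a2, by its fold, without con 3 (log2 difference -0.57) or VHLΔPT/STZ 2. Slc34a1 (-0.04), Umod (-0.26) and Aqp2 (-0.51) were not called in either fit.

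Slc7a12, an amino acid transporter of female kidney, had the greatest difference among the markers: 42.6, 17.8 and 41.8 in con, 27.1 and 139 in VHLΔPT, 1693 and 2279 in con/STZ, and 214 and 1055 in VHLΔPT/STZ (log2 difference -3.57, standard error 0.61, adjusted p = 0.00673). Con overlapped VHLΔPT 1 alone. It was called in all 9 fits with 1 library left out, with log2 differences of -3.96 to -3.17, the one without con/STZ 2 among them. Kap stood at 789999 in each con pool, and at 110088 to 789999 in the other libraries.

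The 9 genes higher in con were immune genes for the most part. C1qa had 559, 567 and 882, against 291 to 443 in the other libraries (log2 difference 0.89, standard error 0.19, adjusted p = 0.0125), and C1qb (0.75), C1qc (0.63), Cd68 (0.77) and Cd74 (0.68) were higher too, without overlap. Con lay wholly above or below the other libraries in 22.8% of all genes tested. The macrophage list was called in 5 of 8 genes, where 2.78% of all genes were called higher in con. Its members Adgre1, Csf1r and Lyz2 were not called. The sum of the list was 9516 to 12132 in con and 5066 to 8290 in the other libraries. Without con 3, the pool with high interferon genes, C1qa was still called (log2 difference 0.67, adjusted p = 0.0413), whereas C1qb (0.65, adjusted p = 0.0680), C1qc (0.47, adjusted p = 0.0656), Cd74 (0.57, adjusted p = 0.0661) and Cd68 (0.65, adjusted p = 0.0842) were not. C1qc and Cd68 also lost the call without VHLΔPT 1, Cd68 without con 2 and Cd74 without con/STZ 1. With the length trend removed C1qa alone was called. Cd79a (1.22), Ttr (0.71), Cyp7b1 of the S3 segment (0.75) and Oas1a (1.38) were the others, and their calls were each lost in 4 to 7 of the 9 fits with 1 library left out (adjusted p up to 0.0764, 0.0828, 0.108 and 0.0941). Without con 3 the difference of Oas1a was 0.72 (adjusted p = 0.0867).

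Without con/STZ 2, the library with Xist, the log2 differences of the genes lower in con were -1.65 for Slc8a1, -1.08 for Slc12a1, -0.90 for Slc4a4, -1.07 for Slc5a12, -1.06 for Calb1, -0.80 for Trpv5, -1.17 for Klhl3 and -3.50 for Slc7a12. They were -0.66 for Lrp2, -0.62 for Slc12a3, -0.75 for Cubn, -0.67 for Slc2a2, -0.78 for Trpm6, -0.80 for Clock and -1.14 for Nos1, and all of these were still called. Of the genes higher in con, C1qa (0.95), C1qb (0.77), C1qc (0.64), Cd68 (0.80), Cd74 (0.80) and Cd79a (1.08) were still called. Calls were lost for Cyp7b1 (0.67, adjusted p = 0.0814), Ptgs2 (-0.96, adjusted p = 0.0629), Thsd7a (-0.57, adjusted p = 0.0847) and Oas1a (1.41, adjusted p = 0.0838) in limma, and by the fold for Ttr (0.58, adjusted p = 0.0332). Umod (-0.28), Aqp2 (-0.54) and Slc34a1 (0.04) were not called.

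**Figure D5:**
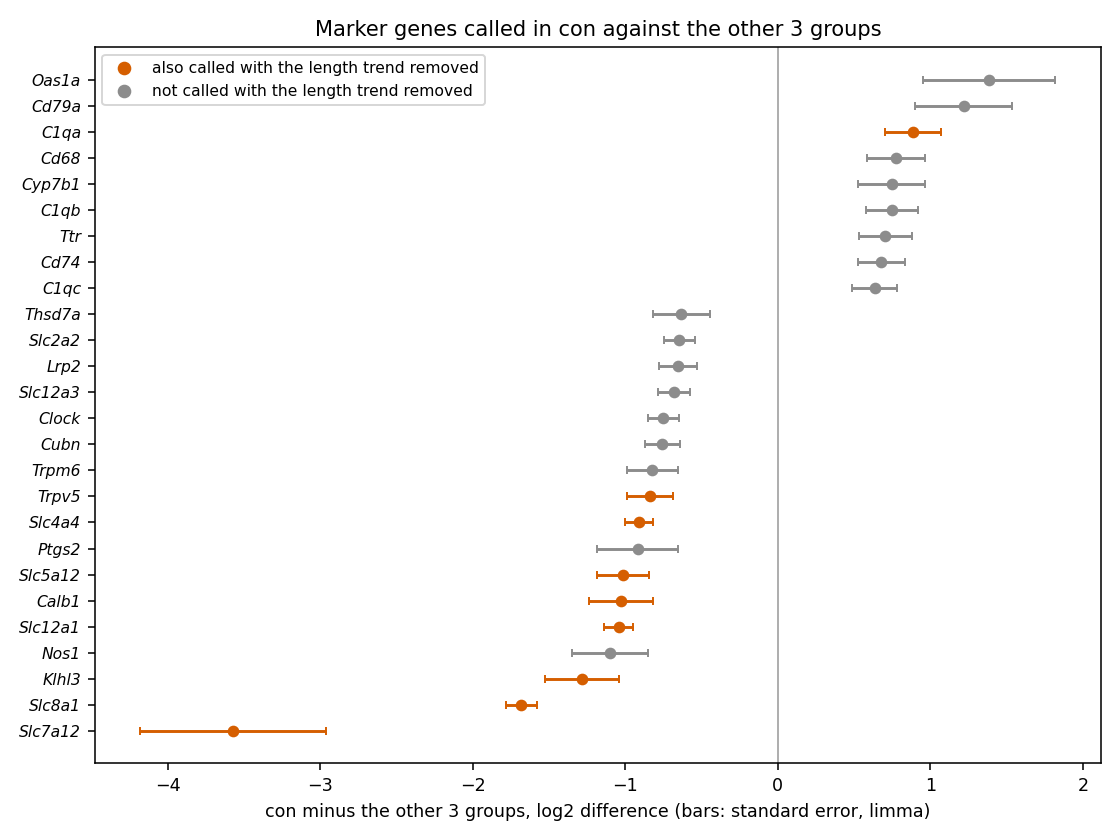
Log2 difference of con minus the mean of the 3 other groups (points) with its standard error (bars, limma) for 26 of the 27 marker genes called. Values run between -3.57 for Slc7a12 and 1.38 for Oas1a, and the orange genes, 9 of these 26, were also called with the length trend removed.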

How the data were processed

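Poly(A) RNA of cortex from 9 pools of 2 mice was sequenced. The authors' pipeline was Trim Galore 0.4 for trimming, STAR 2.5.2b for alignment on GRCm38 and featureCounts 1.5.2 for gene counts. The deposited columns used here are a signal: gene counts that the authors quantile normalized. All are whole multiples of 1/18 (tolerance 0.001), the form that a mean over 9 libraries with ties interpolated would give. The tool of this step is not given in the sources used here. The authors' fold changes, FDR values and adjusted p-values from DESeq2 1.26.0 stand in the same table and were not used.

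Means, SDs and ranks over the 3 con libraries were computed for 18657 genes (24 symbols stored as dates were restored from their identifiers), and levels per kilobase with the merged exons of GENCODE M21 (GRCm38), found for 99.8%. Con was compared with the other groups by limma 3.58.1 in R 4.3.3 on log2(value + 1) of genes averaging at least 10 over the 9 libraries, with a trend of variance on the mean, two-sided and with 5 residual degrees of freedom, and the steps were tested on simulated data. For the length correction a loess trend (span 0.5) on log10 length was subtracted per library. Genes named are the 30 highest by value and per kilobase, the marker lists, the 20 with the largest ratio between con pools at a mean of at least 50 without predicted models, and Vhl. Hmox1, Igfbp1, Zbtb16 and Cdkn1a were added after their values were seen. These members and lists were chosen with earlier results of these data known. Other settings tried were 10 as the pseudocount, a filter at 50 or none, a replicate block, the length correction, no trend, median ratios and leaving out each library. Python 3.11.15, pandas 2.3.3 and matplotlib 3.10.9 were used for the rest. Some genes that these rules name are not reported here.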

Additional observations from a re-analysis of the deposited data

How the results depend on the processing

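Quantile normalization gives genes of one rank one value, so the spread of the highest genes is understated, and at low values counting limits the spread. Depth in reads is unknown above the low end. Of the 30 highest genes by value, 22 stayed among the 30 highest per kilobase, 29 by the median pool, and 28 to 29 with 1 con pool left out. The ranking without mitochondrially encoded genes was not run, because none is among the genes used here. Genes with a 1.5-fold range between con pools numbered 3492, against 7117 with no filter and 1925 with a filter at 50, and 1730 to 2329 with 1 pool left out. Genes called in con against the other groups numbered 1083, against 482 with the length trend removed, and 684 to 1209 with 1 library left out. Of the marker genes 27 were called, 12 with the length trend removed, and 17 to 37 with 1 library left out. The labels do not say that replicate numbers pair the libraries: of 12 correlations of same-numbered libraries 4 were over 0.1 (-0.109 to 0.273). They correlate deviations from the group means. In groups of 2 libraries these deviations mirror each other, so between such groups each value occurs for both numbers, 0.273 among them. The 12 are therefore not separate results. With the replicate block 713 genes and 16 markers were called, and with the block and the length trend removed 199 and 12. Over the 30 marker genes followed singly, 403 of 507 results under an alternative kept their direction and call, 102 lost a call and 2 changed sign, both for Slc34a1, which was not called: its difference ran between -0.13 and 0.037 with 1 library left out (0.037 without con/STZ 2, 0.016 without VHLΔPT/STZ 1). With a pseudocount of 10, no trend or median ratios the counts of genes stayed within 1.5 times.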
